A study of Mus musculus with 8 samples.

Results

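A set of 7 genes that mark the identity of regulatory T cells (Tregs) was followed in CD4+ T cells exposed to constitutive CD70, the ligand of the costimulatory receptor CD27. They are *Foxp3*, *Ikzf2*, *Ikzf4*, *Gpr83*, *Nrp1*, *Izumo1r* and *Lrrc32*, and each was taken by its name from the deposited table, where these are 7 of 52636 rows. All 7 were among the 12798 genes that passed the minimum for testing, each with a value above that minimum in every library. The question was whether chronic CD27 engagement changed the expression of these genes in Tregs, or added it to conventional CD4+ T cells (Tconvs).

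Foxp3 is the transcription factor that specifies Tregs, and its loss leaves mice without functional suppressor cells. Helios (encoded by *Ikzf2*) and Eos (*Ikzf4*) are zinc finger factors of the Ikaros family, of which Eos is known as a corepressor that works together with Foxp3. The other members encode surface proteins, namely the G protein-coupled receptor Gpr83, neuropilin-1 (*Nrp1*), a receptor for semaphorins and VEGF, the folate receptor family protein FR4 (*Izumo1r*, also known as Juno) and GARP (*Lrrc32*), which holds latent TGF-beta at the Treg surface.

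RNA was sequenced from CD4+ Foxp3+ Tregs and CD4+ Foxp3- Tconvs sorted from spleens of mice at 6 to 8 weeks of age, with 200000 cells per library. Each of the 4 groups held 2 libraries, making 8. Control mice carried a single functional copy of the CD27 gene (CD27+/-), and CD70Tg mice carried in addition a *Cd70* transgene under the CD11c promoter (CD11c-Cd70tg;CD27+/-), which places CD70 mainly on dendritic cells. The labels call the control mice WT while the table names their columns KO, and these columns were taken as the CD27+/- controls because the table has no other columns without the transgene. The methods name a Foxp3 reporter for the sort, in which eGFP marks the cells that express *Foxp3*, so that the difference in *Foxp3* between sorted Tregs and Tconvs was set by the sort and is no finding. The CD70Tg mice develop a spontaneous disease whose reported start is close to the upper end of the age range used, so that the effect of CD70 on T cells and that of early disease cannot be told apart in these libraries. Neither the labels nor the methods say whether the libraries of a group came from separate mice, so that the p-values measure the spread between these libraries, which may be technical.

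Values are in the deposited unit, reads scaled to 20 M per library, and a fold change is on the scale of log2(value + 5). Low values within a library step by what a single read is worth, which puts the reads on genes between 1.9 and 4.52 M in the Treg libraries and between 6.9 and 33.03 M in the Tconv libraries. The value given by 3 reads, taken as the floor and covering counting error only, was between 13.1 and 31.3 in Tregs and between 1.8 and 8.6 in Tconvs, and each of the 7 genes lay above it in each library. The lowest number of reads behind a member's value was 86, for *Lrrc32* in a CD70Tg Tconv library. The sum of 5 Treg markers (*Foxp3*, *Il2ra*, *Ctla4*, *Tnfrsf18* and *Ikzf2*) was between 69605 and 70773 in control Tregs, between 62848 and 63687 in CD70Tg Tregs, between 4581 and 5096 in control Tconvs and between 4673 and 6168 in CD70Tg Tconvs. The libraries thus fell by subset as labelled, where *Foxp3* was used in the sort and CD25+ cells (*Il2ra*) were depleted from Tconvs, and this sum is no check of the genotype.

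Before the genes are taken by role, the counts were as follows. A gene counted as called when its adjusted p (limma, Benjamini-Hochberg over all tested genes) lay under 0.05 and its change exceeded 2-fold. In Tregs, 1 of the 7 genes was called lower in CD70Tg mice, *Gpr83*, where 1.08% of all tested genes were called lower. In Tconvs, 1 of 7 was called lower, again *Gpr83*, where 0.57% of all tested genes were called lower. In sorted bulk populations, fewer cells that express a gene and less of its RNA per cell cannot be told apart. With no threshold on the fold, *Izumo1r* joined it in both subsets, giving 2 of 7 lower in each, against 3.46% of all tested genes in Tregs and 1.98% in Tconvs. None of the 7 was called higher under CD70 by limma, where 2.52% of all tested genes were called higher in Tregs and 4.07% in Tconvs. At an unadjusted p-value under 0.05, 0 were higher in Tregs and 1, *Nrp1*, in Tconvs, and limma-voom gave the same counts (0 called, with 0 and 1 at the unadjusted threshold). The median log2 change of the 7 genes was -0.07 in Tregs and -0.02 in Tconvs, beside -0.05 and 0.01 over all tested genes. Where control and CD70Tg libraries are said below not to overlap, this is a description, since 2 against 2 can lie apart by chance. How often this occurred over all tested genes was not counted.

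**Figure D1:**
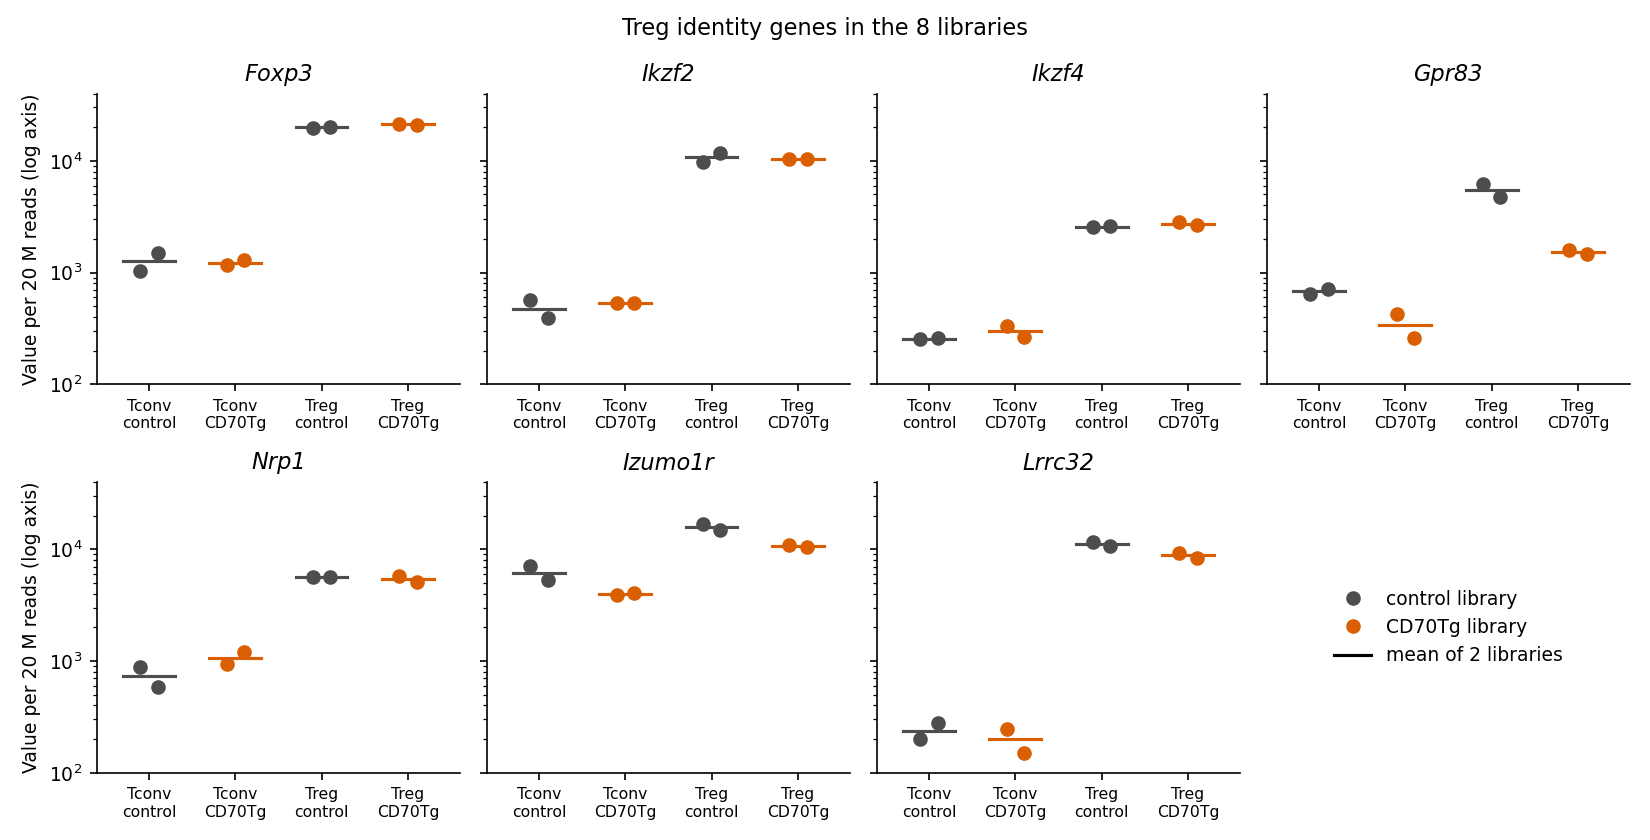
Values of the 7 genes in the 8 libraries, per 20 M reads on a log axis, with a point for each library and a line at the mean of the 2 libraries of a group (grey, control; orange, CD70Tg). *Gpr83* and *Izumo1r* lie lower in both CD70Tg groups than in their controls. *Foxp3*, on which the cells were sorted, stays at about the same height (19769 and 20102 in control, 21367 and 21080 in CD70Tg Tregs).

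The transcription factors were examined first. *Foxp3* (ENSMUSG00000039521, chromosome X, 7573644 to 7595245, plus strand, mm10) had values of 19769 and 20102 in control Tregs and 21367 and 21080 in CD70Tg Tregs. In Tconvs it was at 1039 and 1497 in controls and at 1170 and 1285 in CD70Tg mice. The Treg libraries of both genotypes lay close together, with the CD70Tg libraries slightly above, and the CD70Tg Tconv libraries lay between the 2 control libraries. The log2 change was 0.09 in Tregs (95% interval -0.21 to 0.39, adjusted p = 0.77) and -0.02 in Tconvs (-0.32 to 0.27, adjusted p = 0.96). The upper ends of the intervals lie at a 1.31-fold increase in Tregs and a 1.21-fold increase in Tconvs. Since the sort was made on *Foxp3*, a Tconv that gained its expression would have left the Tconv gate, so the values in Tconvs do not tell whether CD70 added *Foxp3* to Tconvs. A Treg that lost it would likewise have left the Treg gate, so the values in Tregs do not tell whether cells lost *Foxp3*. Annotated genes that overlap its exons, *Flicr* among them, share 31.5% of their length, so that part of its reads may have been left uncounted or given to a neighbour.

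*Ikzf2* (chromosome 1, 69531214 to 69687245, minus strand) was at 9792 and 11844 in control Tregs and at 10386 and 10402 in CD70Tg Tregs, which lay between the control libraries. In Tconvs it was at 564 and 388 in controls and at 534 and 536 in CD70Tg mice, again inside the range of the controls. The log2 change was -0.05 in Tregs (-0.37 to 0.27, adjusted p = 0.89) and 0.19 in Tconvs (-0.13 to 0.51, adjusted p = 0.58). Helios transcripts thus showed no difference beyond the spread of the libraries in either subset.

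*Ikzf4* (chromosome 10, 128630843 to 128645991, minus strand) was at 2538 and 2597 in control Tregs and at 2822 and 2659 in CD70Tg Tregs. In Tconvs its values were 252 and 258 in controls and 329 and 266 in CD70Tg mice. Both CD70Tg libraries lay above both controls in each subset, but the differences were small and did not pass the test, with a log2 change of 0.09 in Tregs (-0.22 to 0.41, adjusted p = 0.78) and 0.21 in Tconvs (-0.10 to 0.52, adjusted p = 0.51).

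The other Ikaros factors in the table were set beside these. *Ikzf3*, which encodes Aiolos, had a mean of 3580 ± 36.1 (SD, n = 2) in control Tconvs and 6677 ± 935 (SD, n = 2) in CD70Tg Tconvs, a log2 change of 0.89 that passed the p-value threshold (adjusted p = 7.2e-05) and not the 2-fold threshold. In Tregs its log2 change was -0.01 (adjusted p = 0.96), and the subsets differed by -0.91 (adjusted p = 0.011). *Ikzf1*, which encodes Ikaros, had log2 changes of -0.10 in Tregs (adjusted p = 0.68), beside -0.09 in Tconvs (adjusted p = 0.77). Of the 3 relatives tested, *Ikzf5* included, limma called 0 under CD70 in either subset, with 1 at an unadjusted p-value under 0.05 in Tconvs (*Ikzf3*) and 0 in Tregs, and the counts were the same with limma-voom. Without the first CD70Tg Tconv library, 1 was called higher in Tconvs and 1 lower in the difference between the subsets.

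The surface receptor *Gpr83* gave the largest change of the 7 genes. It lies on chromosome 9 (14860210 to 14870789, plus strand), and *Izumo1r* is its neighbour on the same chromosome (14885814 to 14903949, minus strand). Between the ends of the genes lie 15024 bases, and none of the other genes kept from the deposited table lies in this gap. The genes are transcribed towards each other, so that their promoters lie on the far sides of the pair. Because both fell under CD70, the 250 bases before the start that RefSeq gives each of them (GRCm38.p6, the build of mm10) are shown, 5′ to 3′ along the gene's own strand. Capitals mark the core letters of a T-box site, GGTGTG, or CACACC where the site is on the other strand.
Gpr83, chr9:14859960-14860209, plus strand: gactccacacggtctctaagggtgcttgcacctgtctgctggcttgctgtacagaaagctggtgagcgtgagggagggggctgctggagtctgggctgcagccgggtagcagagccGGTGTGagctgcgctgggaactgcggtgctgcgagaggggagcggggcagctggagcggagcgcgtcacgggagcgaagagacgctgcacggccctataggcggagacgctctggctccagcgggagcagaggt
Izumo1r, chr9:14903768-14904017, minus strand: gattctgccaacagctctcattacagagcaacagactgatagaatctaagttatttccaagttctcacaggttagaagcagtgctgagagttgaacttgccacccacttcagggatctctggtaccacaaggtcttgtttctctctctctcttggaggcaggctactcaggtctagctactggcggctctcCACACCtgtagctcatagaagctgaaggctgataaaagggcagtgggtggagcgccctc

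T-box factors such as T-bet and Eomes are known regulators of type 1 effector T cells, and these 6 letters stand 134 bases before the start of *Gpr83* and, on the other strand, 59 bases before that of *Izumo1r* (counted to the first letter as printed). They are common letters, found on either strand in 16.2% of the 27025 promoter windows of the same length in the RefSeq table. The letters of a Runx site, TGTGGT, were found on the other strand 127 bases before the start of *Izumo1r*, without overlap with the first match, and in 14.2% of all windows. A forkhead site, TGTTTAC, was in neither window, nor were any of these 3 motifs in the windows of *Foxp3* and *Nrp1*. Forkhead letters were in 3.09% of all windows. Windows were found for these 4 of the 7 genes. The start that RefSeq gives *Izumo1r* lies inside the gene as annotated by GENCODE. A match describes letters only, and no binding was measured.

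*Gpr83* was at 6250 and 4729 in control Tregs and at 1578 and 1458 in CD70Tg Tregs. In Tconvs it was at 646 and 714 in controls and at 424 and 259 in CD70Tg mice. Neither subset showed an overlap between control and CD70Tg libraries, and the control Treg libraries stood apart from the 6 others. *Gpr83* fell by 1.84 on the log2 scale in Tregs (SE 0.19, 95% interval -2.24 to -1.43, adjusted p = 2.9e-05), which is 3.58-fold lower, with an interval from 2.7-fold to 4.74-fold. It ranked 43 from the lowest among the 12798 tested genes.

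In Tconvs *Gpr83* fell by 1.02 on the log2 scale (SE 0.19, -1.43 to -0.62, adjusted p = 0.0019), 2.03-fold lower. This value lies next to the 2-fold threshold, and the call in Tconvs was lost without the second control library (-0.95, adjusted p = 0.015) or without the second CD70Tg library (-0.67, adjusted p = 0.035), where libraries are numbered by their order in the table. The fall was larger in Tregs than in Tconvs by 0.81 on the log2 scale (difference -0.81, 95% interval -1.39 to -0.24), a difference that was past an unadjusted p-value of 0.05 but not past the adjusted test over all genes (adjusted p = 0.23). Without the second CD70Tg Tconv library the difference was -1.16 (adjusted p = 0.025).

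*Izumo1r* was the member with the highest level per kb of exon in Tconvs. It was at 16906 and 14926 in control Tregs and at 11024 and 10494 in CD70Tg Tregs, and at 7099 and 5292 in control Tconvs and 3919 and 4078 in CD70Tg Tconvs. Again the libraries of the genotypes did not overlap in either subset. It fell by 0.56 on the log2 scale in Tregs (SE 0.13, -0.85 to -0.28, adjusted p = 0.016), 1.48-fold lower, and by 0.62 in Tconvs (SE 0.13, -0.90 to -0.33, adjusted p = 0.0062), 1.53-fold lower. Both passed the p-value threshold and neither the 2-fold threshold. The p-value in Tregs did not hold without the first control library (adjusted p = 0.22) or without the first or second CD70Tg library (0.088 and 0.12), and in Tconvs without the first control library (0.10), and in both subsets not with no minimum value (0.095 in each). The fold changes in the subsets were within 0.05 of each other on the log2 scale (difference -0.35 to 0.45, adjusted p = 0.95).

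**Figure D2:**
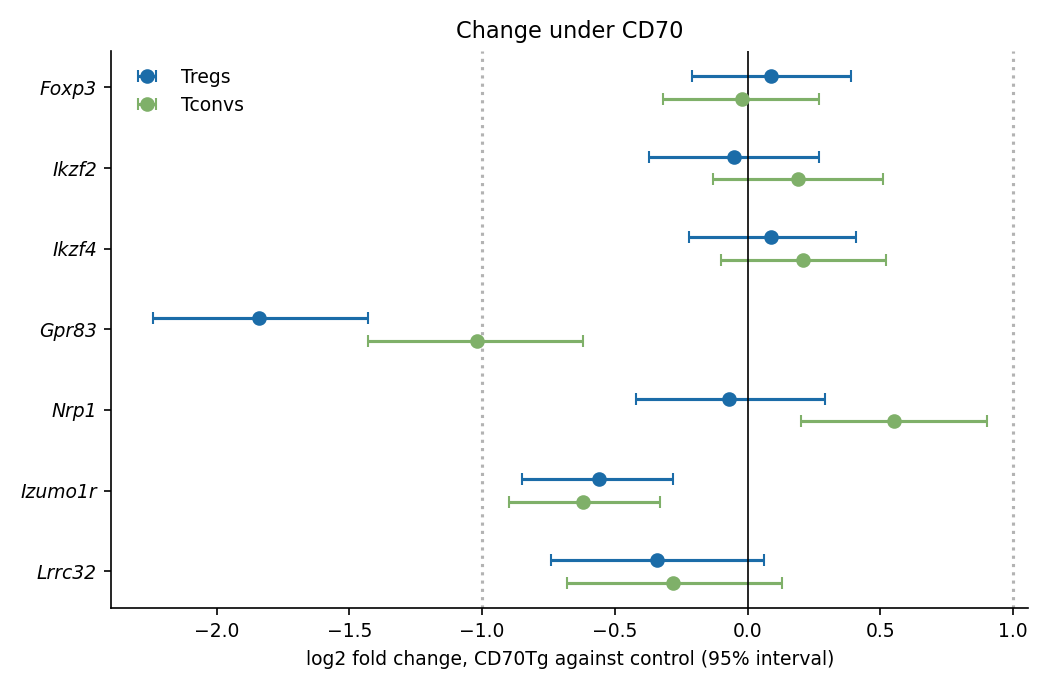
Log2 change of the 7 genes in CD70Tg against control mice, in Tregs (blue) and in Tconvs (green), with bars for the 95% interval from limma and dotted lines at a 2-fold change. The intervals of *Gpr83* and *Izumo1r* lie below 0 in both subsets, and that of *Nrp1* lies above 0 in Tconvs, from 0.20 to 0.90.

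As the genes are neighbours, the rest of the locus was examined. This step was chosen after the values of both genes had been seen. Within 500 kb on either side of the middle of the pair the rows kept from the table held 35 genes, of which 11 were tested. Of the 9 tested genes other than the pair, limma called 0 under CD70 in Tregs and 0 in Tconvs, with 3 and 0 at an unadjusted p-value under 0.05, while limma-voom called 0 in each with 2 and 1 at that level. With no threshold on the fold, 1 of the 9 was lower in Tregs, where 3.46% of all tested genes were. This was *Mre11a*, which encodes a nuclease of DNA break repair, with a log2 change of -0.53 (adjusted p = 0.041) in Tregs and 0.02 (adjusted p = 0.97) in Tconvs. The largest change of the 9 in Tregs was that of *4931406C07Rik*, 0.71 (95% interval 0.09 to 1.33, adjusted p = 0.17), beside 0.07 in Tconvs (adjusted p = 0.94). *Panx1*, the nearest tested gene on the side of *Izumo1r*, had a log2 change of 0.27 in Tregs (adjusted p = 0.22), beside 0.15 in Tconvs (adjusted p = 0.61).

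**Figure D3:**
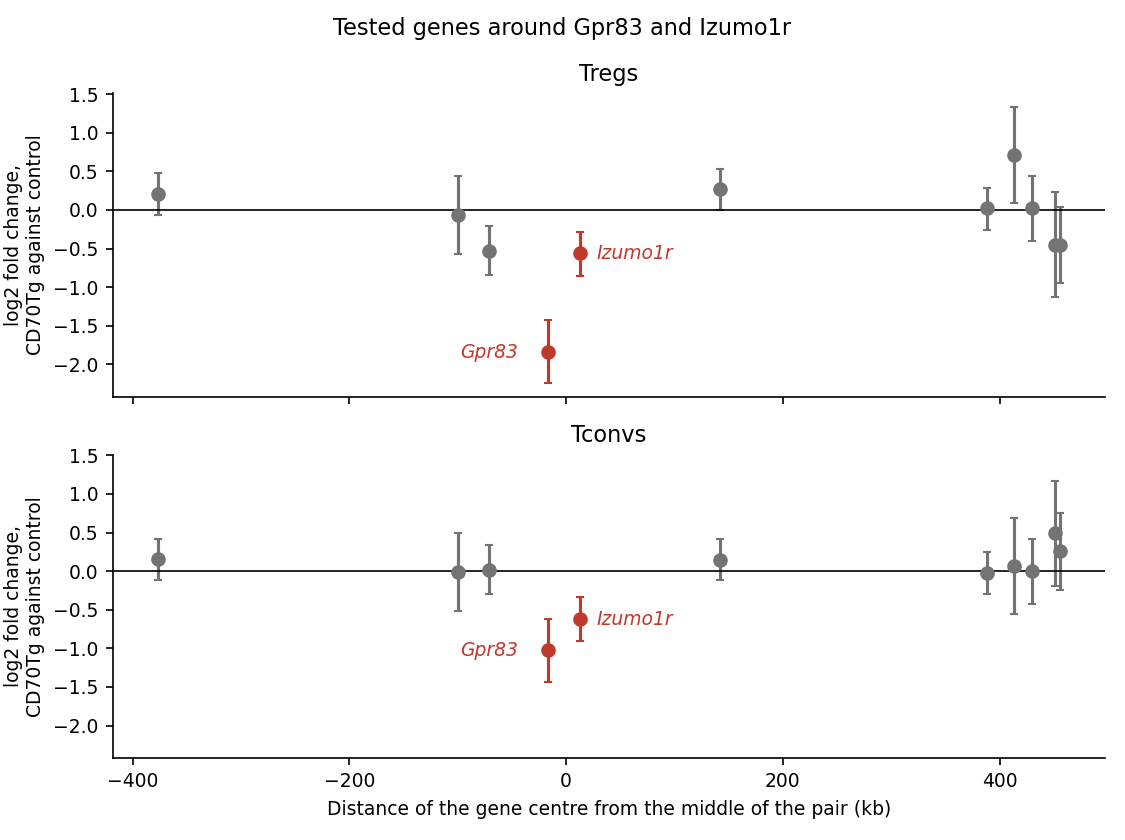
Log2 change of the 11 tested genes around *Gpr83* and *Izumo1r* (red) against the distance of each gene's centre from the middle of the pair in kb, in Tregs (top) and Tconvs (bottom), with 95% intervals from limma. In Tconvs both red points lie below 0 while the intervals of the 9 other genes (grey) include 0, and in Tregs the grey interval below 0 is that of *Mre11a* and the highest grey point, with an interval above 0, that of *4931406C07Rik*.

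*Nrp1* (chromosome 8, 128358604 to 128503363, plus strand) was at 5658 and 5640 in control Tregs and at 5747 and 5062 in CD70Tg Tregs, with a log2 change of -0.07 (-0.42 to 0.29, adjusted p = 0.87). In Tconvs it was at 884 and 584 in controls and at 931 and 1193 in CD70Tg mice, where both CD70Tg libraries lay above both controls. Its log2 change there was 0.55 (SE 0.17, 0.20 to 0.90), which stood at the edge of the p-value threshold (adjusted p = 0.051). It was 0.25 (adjusted p = 0.54) without the second control library, 0.37 (adjusted p = 0.36) without the second CD70Tg library, 0.85 (adjusted p = 0.0017) without the first control library and 0.73 (adjusted p = 0.018) without the first CD70Tg library. The adjusted p of 0.051 also passed to the other side of the threshold with median-of-ratios factors (0.040), trimmed mean of M values factors (0.046), a pseudocount of 20 (0.047), limma-voom (0.048) and a minimum above 10 in every library (0.048), and was 0.32 with no minimum value. Tregs minus Tconvs came to -0.62 (-1.12 to -0.12, adjusted p = 0.33), and to -0.91 (adjusted p = 0.029) without the first control Tconv library.

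Among the relatives and partners of neuropilin-1, 3 of 5 listed genes were tested. *Nrp2*, its homologue, was at 85.5 ± 16.3 in control and 27.5 ± 9.19 in CD70Tg Tconvs (SD, n = 2 each) and was the 1 of 3 called lower, where 0.57% of all tested genes were, with a log2 change of -1.50 (adjusted p = 0.020). It was not called without either control library or the first CD70Tg library (-1.68 to -1.20, adjusted p 0.067 to 0.22). *Sema4a*, which encodes a semaphorin that binds neuropilin-1, had a mean of 3244 ± 566 in control Tconvs against 201 ± 4.24 in control Tregs (SD, n = 2 each). Under CD70 its log2 change was 0.37 in Tconvs (adjusted p = 0.25), beside 0.19 in Tregs (adjusted p = 0.57).

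*Lrrc32* (chromosome 7, 98489283 to 98502181, plus strand) was at 11665 and 10684 in control Tregs and at 9237 and 8423 in CD70Tg Tregs. The CD70Tg libraries lay below the controls without overlap, but the difference did not pass the test over all genes, with a log2 change of -0.34 (-0.74 to 0.06, adjusted p = 0.33). With the 4 Treg libraries alone in the fit, the same fold change had an adjusted p of 0.011. In Tconvs *Lrrc32* was at 200 and 277 in controls and at 248 and 151 in CD70Tg mice, ranges that overlap, with a log2 change of -0.28 (-0.68 to 0.13, adjusted p = 0.51).

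Genes that handle TGF-beta with GARP were read as a list of 7. In Tregs limma called 0 of them under CD70 in either direction, with 1 at an unadjusted p-value under 0.05, and limma-voom gave the same counts. There *Tgfbr1*, which encodes a receptor chain, had the lowest value, -0.47 on the log2 scale (adjusted p = 0.050). In Tconvs 1 of 7 was called higher, where 4.07% of all tested genes were. This was *Furin*, a protease that cuts pro-TGF-beta among other proproteins, with values of 3026 and 6756 in CD70Tg libraries against a mean of 1852 ± 65.8 (SD, n = 2) in controls (log2 change 1.29, adjusted p = 0.0016), and with a log2 change of 0.71 without the second CD70Tg library it was not called. The integrin chain *Itgb8*, which takes part in releasing active TGF-beta from GARP, was at 1068 ± 20.5 in control and 1008 ± 36.1 in CD70Tg Tregs (SD, n = 2 each), with a log2 change of -0.08 (adjusted p = 0.89). The TGF-beta gene itself, *Tgfb1*, had log2 changes of -0.12 in Tregs (adjusted p = 0.63), beside -0.22 in Tconvs (adjusted p = 0.35).

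The levels of the 7 genes were then compared with each other as value per kb of exon. In control Tregs, *Izumo1r* was highest with 6430 to 7290 per kb, followed by *Foxp3* with 4320 to 4390, *Lrrc32* with 2280 to 2490, *Gpr83* with 928 to 1230, *Ikzf2* with 843 to 1020, *Nrp1* with 576 to 578 and *Ikzf4* with 423 to 433. Only *Gpr83* and *Ikzf2* overlapped among neighbours in this order. In CD70Tg Tregs, *Izumo1r* with 4520 to 4750 per kb overlapped with *Foxp3* at 4610 to 4670. *Lrrc32* followed with 1800 to 1970, *Ikzf2* with 894 to 896, *Nrp1* with 517 to 587 and *Ikzf4* with 444 to 471. *Gpr83*, the fourth in control Tregs, was the lowest in CD70Tg Tregs with 286 to 310 per kb, apart from the others.

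In control Tconvs the order per kb was different. *Izumo1r* had 2280 to 3060 per kb, *Foxp3* 227 to 327, *Gpr83* 127 to 140 and *Nrp1* 59.7 to 90.3, while *Lrrc32*, *Ikzf4* and *Ikzf2* lay between 33.4 and 59.1 and overlapped. In CD70Tg Tconvs *Nrp1*, with 95.1 to 122 per kb, lay above *Gpr83*, with 50.8 to 83.2, so that these genes changed places. The level of *Gpr83* there overlapped with those of *Ikzf4*, at 44.4 to 54.9, and *Lrrc32*, at 32.2 to 52.9.

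To see how far the members still set Tregs apart, each subset was compared with the other within a genotype. These comparisons use the same libraries as those above and are not independent of them. All 7 genes were called higher in Tregs in control mice, where 14.7% of tested genes were, and all 7 in CD70Tg mice, where 12.3% were. *Foxp3* is counted here although the sort was made on it. The 7 genes were chosen as Treg genes with earlier results of these data known, so these counts are no finding. *Lrrc32* had the largest difference, with a log2 change of 5.54 in controls and 5.47 in CD70Tg mice, and it ranked 4 from the highest of 12798 genes in controls and 1 in CD70Tg mice. The log2 difference was 4.51 and 4.27 for *Ikzf2*, 3.31 and 3.19 for *Ikzf4*, and 1.37 and 1.43 for *Izumo1r*, in controls and CD70Tg mice respectively. For *Gpr83* it was 2.99 in controls and 2.18 in CD70Tg mice, and for *Nrp1* 2.97 and 2.35. The test of whether these differences changed with genotype is that of the CD70 effect between subsets, in which limma called 0 of 7 genes, where 0.875% of all tested genes were called, with 2 genes (*Gpr83* and *Nrp1*) at an unadjusted p-value under 0.05. With limma-voom 0 were called and 2 were at that unadjusted threshold.

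**Figure D4:**
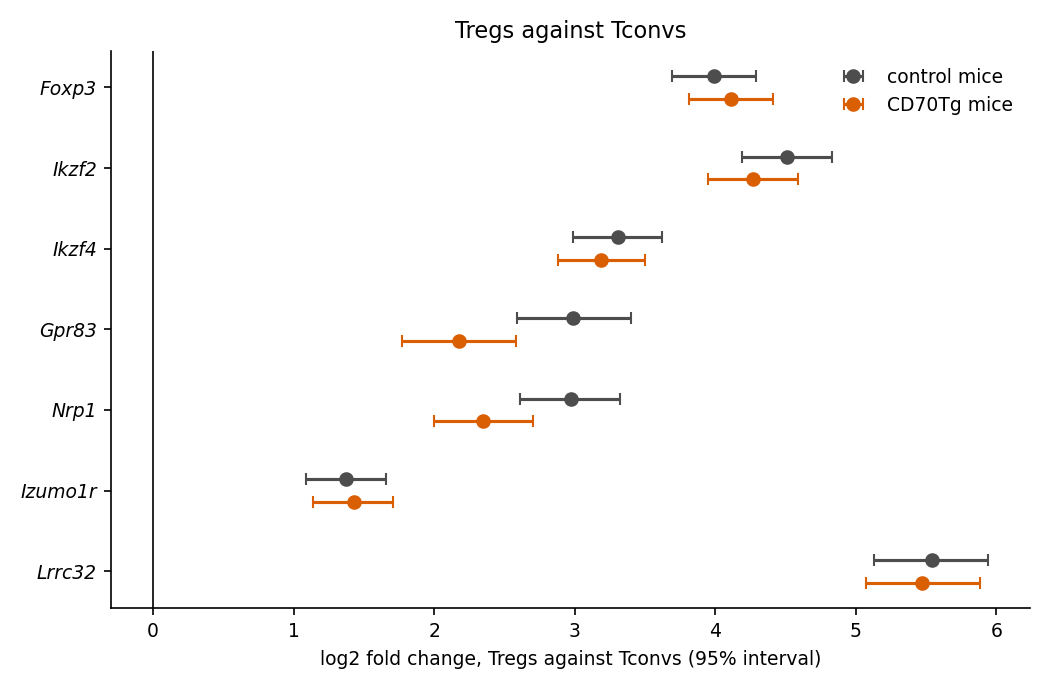
Log2 change of the 7 genes in Tregs against Tconvs in control mice (grey) and CD70Tg mice (orange), with 95% intervals from limma. Every interval lies above 0 in both genotypes, and the orange point lies furthest to the left of the grey for *Gpr83* (2.18 against 2.99).

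The Tconv level was also expressed as a percentage of the Treg level of the same genotype. In controls it was lowest for *Lrrc32* (2.13%), *Ikzf2* (4.40%) and *Foxp3* (6.36%), and highest for *Izumo1r* (38.9%), with *Ikzf4* at 9.93%, *Gpr83* at 12.4% and *Nrp1* at 13.0%. In CD70Tg mice the percentages were 2.26% for *Lrrc32*, 5.15% for *Ikzf2*, 5.78% for *Foxp3*, 10.9% for *Ikzf4* and 37.2% for *Izumo1r*. Those of *Gpr83* and *Nrp1* were 22.5% and 19.7%.

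The wider Treg programme was read from lists of genes. Of 25 core Treg genes (surface receptors, cytokines and signalling genes), limma called 25 higher in Tregs than in Tconvs in control mice, where 14.7% of all tested genes were, and 23 in CD70Tg mice, where 12.3% were. These counts are no finding, since the genes were listed as Treg genes with earlier results of these data known. The list also holds *Il2ra*, whose level in Tconvs was limited by the depletion of CD25+ cells. In Tregs under CD70, 3 of the 25 were called higher and 1 lower, where 2.52% and 1.08% of all tested genes were. With no threshold on the fold, 6 were higher and 2 lower, where 3.94% and 3.46% of all tested genes were. The 3 called higher became 2 without the first control Treg library, and 5 without either control Tconv library, which enters through the shared estimate of the spread. The increased genes were *Itgae*, which encodes the CD103 integrin chain (4848 ± 260 to 12631 ± 884, SD, n = 2 each; log2 change 1.38, adjusted p = 0.00019), *Klrg1*, an inhibitory receptor of effector cells (1.49, adjusted p = 0.0056, but 1.31 with an adjusted p of 0.074 without the first control library), and *Fgl2*, a secreted suppressive protein (1.47, adjusted p = 0.00014). *Cd83*, which encodes a surface glycoprotein, was the decreased gene, at 3396 ± 34.6 in control and 1444 ± 57.3 in CD70Tg Tregs (SD, n = 2 each; log2 change -1.23, adjusted p = 0.0018). The median log2 change of the list in Tregs was 0.35, beside -0.05 over all genes.

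In Tconvs, 10 of the 25 core Treg genes were called higher and 1 lower, where 4.07% and 0.57% of all tested genes were, and the median log2 change of the list was 0.74 beside 0.01 over all genes. *Il10*, the suppressive cytokine, was at 30 and, below the floor of its library, 3 in controls and at 340 and 629 in CD70Tg Tconvs (log2 change 4.80, adjusted p = 3.6e-06, and 3.74 to 5.87 without single control libraries). *Klrg1* rose from 57.0 ± 26.9 to 753 ± 387 (3.58, adjusted p = 4.7e-07) and *Entpd1*, the CD39 ectoenzyme that removes extracellular ATP, from 128 ± 6.36 to 1310 ± 373 (SD, n = 2 each; 3.27, adjusted p = 1.8e-09). The inhibitory receptor *Tigit* was at 1274 and 360 in controls and at 3037 and 4315 in CD70Tg Tconvs (2.41, adjusted p = 0.00018), with a log2 change of 3.31 without the first control library and 1.50 without the second. The cytokine subunit *Ebi3* was at 15 and 11 in controls and at 44 and 131 in CD70Tg Tconvs (2.19, adjusted p = 0.0020), and came to 2.93 without the first CD70Tg library and to 1.45 (adjusted p = 0.060) without the second. *Fgl2* (2.60), *Itgae* (1.78), *Ccr6* (1.14), the OX40 gene *Tnfrsf4* (1.10) and the IL-2 receptor chain *Il2rb* (1.05) were also called higher, while *Cd83* was called lower (-1.57). Leaving out single Tconv libraries, 7 to 13 of the 25 were called higher, with 7 without the second CD70Tg library, where *Ebi3*, *Tnfrsf4* (0.62, adjusted p = 0.11) and *Il2rb* (0.96) were not called. *Tnfrsf4* was not called without the second control library either (0.77, adjusted p = 0.067), nor *Ccr6* (0.89) and *Il2rb* (0.98) without the first. None of these genes is among the 7 identity genes, of which none was called higher in the same libraries. Many of the 10 are also genes of activated effector T cells, and *Il10*, *Klrg1* and *Itgae* are on the list of effector Treg genes below.

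The log2 change under CD70 lay lower in Tregs than in Tconvs for 4 core genes, by the test of the difference between the subsets, where 0.734% of all tested genes were called lower. These were *Il10* (-3.72, adjusted p = 0.011), *Entpd1* (-2.61, adjusted p = 3.5e-05), *Klrg1* (-2.09, adjusted p = 0.021) and the inhibitory receptor *Ctla4* (-1.05, adjusted p = 0.041). With limma-voom 1 was called and 14 were lower at an unadjusted p-value under 0.05. Leaving out single libraries, 1 to 9 core genes were called, and *Entpd1* was called each time. The difference for *Il10*, whose second control Tconv value lies below the floor, came to -4.79 without the first control Tconv library and to -2.66 without the second. *Il10* was not called without the second CD70Tg Tconv library (adjusted p = 0.078) or the first CD70Tg Treg library (0.061), and the calls of *Klrg1* and *Ctla4* were lost when any single one of 4 and of 6 libraries was left out (adjusted p 0.064 to 0.10 and 0.053 to 0.19). *Il2ra*, the high-affinity IL-2 receptor chain, had a log2 change of -0.56 in Tregs (adjusted p = 0.056), beside -0.55 in Tconvs (adjusted p = 0.053), and its level in Tconvs was limited by the depletion of CD25+ cells from them. The ectoenzyme *Nt5e*, CD73, fell by 0.75 in Tregs (adjusted p = 0.0079), without reaching a 2-fold change.

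**Figure D5:**
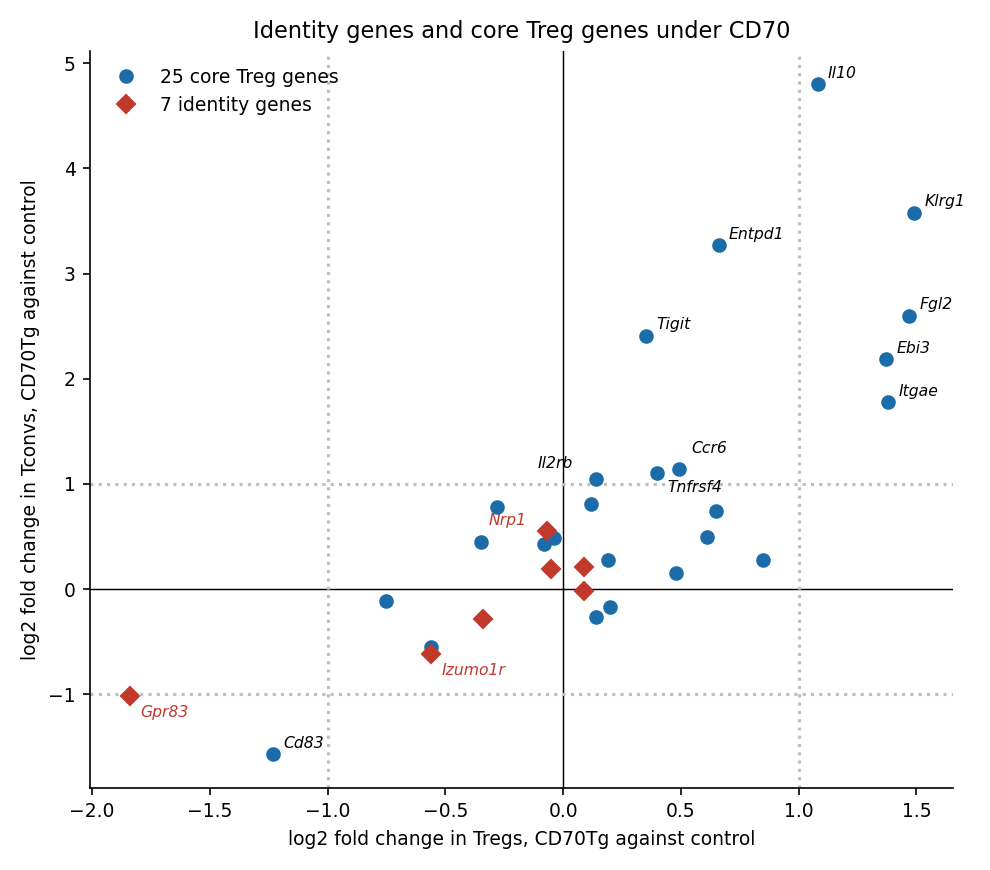
Log2 change in CD70Tg against control mice in Tregs (horizontal axis) and in Tconvs (vertical axis) for the 25 core Treg genes (blue circles) and the 7 identity genes (red diamonds), with dotted lines at a 2-fold change and names on those core genes that changed more than 2-fold in Tconvs and on 3 identity genes. The red diamonds lie below 0.6 on the vertical axis. The 10 core genes called higher in Tconvs start at 1.05, since a call needs a log2 change over 1. The other core genes lie below 1 on that axis, between *Cish* (0.81) and *Cd83* (-1.57).

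Genes that are typically low in Tregs gave 9 tested genes of 10 listed, and 7 of these were called lower in Tregs than in Tconvs in each genotype, where 4.43% of all tested genes were in controls and 4.94% in CD70Tg mice. As the list was chosen for this difference, the count is no finding. Under CD70 in Tregs, limma called 0 of 9 higher and 2 lower, where 2.52% and 1.08% of all tested genes were, with 2 higher and 7 lower at an unadjusted p-value under 0.05. With limma-voom 0 were called higher and 1 lower, with 1 and 5 at the unadjusted threshold. *Pde3b*, a phosphodiesterase gene, was at 87.5 ± 13.4 in control and 158 ± 0.707 in CD70Tg Tregs (SD, n = 2 each), a log2 change of 0.82 (adjusted p = 0.0084), and at 3724 ± 800 in control Tconvs. Those called lower in Tregs were *Igfbp4* (-1.33, adjusted p = 4e-05) and *Cd40lg*, the gene of the CD40 ligand (-1.29, adjusted p = 0.00045, and -0.96 without the first CD70Tg library, which is not past 2-fold). In Tconvs 1 of 9, *Dapl1*, was called lower (-1.41, adjusted p = 0.0011), where 0.57% of all tested genes were, and 2 were without the first CD70Tg library. In Tregs 3 were called lower without the second control library.

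Of 32 genes for partners of the Foxp3 protein and inducers or modifiers of its gene, limma called 0 in Tregs in either direction, with 2 higher and 4 lower at an unadjusted p-value under 0.05, and limma-voom gave the same counts. With no threshold on the fold, where 3.94% of all tested genes were higher and 3.46% lower, *Runx3*, a partner of Foxp3, was higher in Tregs (0.55, adjusted p = 0.0088), beside 0.70 in Tconvs (adjusted p = 0.00073; difference -0.15, adjusted p = 0.81), and *Smad2*, a mediator of TGF-beta signals (-0.64, adjusted p = 0.0084), and *Tet3*, which oxidises methylated DNA (-0.55, adjusted p = 0.020), were lower. In Tconvs 1 of 32 was called higher, where 4.07% of all tested genes were, and 0 lower, with 4 in each direction at an unadjusted p-value under 0.05 and, with limma-voom, 1 called higher and 0 lower with 6 and 5 at that threshold. The called gene was *Uhrf1*, which takes part in copying DNA methylation at replication (1.09, adjusted p = 0.023), and it was not called without the second control (0.72, adjusted p = 0.25) or the second CD70Tg library (0.58, adjusted p = 0.34), each of which left 0 called, while 2 were called higher without the first control library. *Irf4*, a transcription factor of effector Tregs, was called in the difference between the subsets (-1.39, adjusted p = 0.034), with log2 changes of -0.65 in Tregs (adjusted p = 0.077), beside 0.74 in Tconvs (adjusted p = 0.039). That call was lost when any single one of 6 libraries was left out (adjusted p 0.045 to 0.15, the lowest of these with a log2 difference of -0.91).

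Resting and effector Treg genes were compared in the same way. Of 8 resting genes, limma called 0 under CD70 in either subset, although at an unadjusted p-value under 0.05 there were 1 higher and 3 lower in each. With limma-voom 0 were called, with 1 higher and 2 lower at that threshold in Tregs and 1 and 3 in Tconvs. Without the second control Treg library, limma called 1 lower in Tregs. *Bcl2*, the survival factor, was at 3599 ± 339 in control and 1836 ± 40.3 in CD70Tg Tregs (SD, n = 2 each; -0.97, adjusted p = 6.2e-05) and moved the other way in Tconvs (0.47, adjusted p = 0.012), with a difference of -1.44 (adjusted p = 0.00026). Of 10 effector genes, 2 were called higher in Tregs (*Klrg1* and *Itgae*), where 2.52% of all tested genes were, and 0 lower, with 6 higher and 3 lower at an unadjusted p-value under 0.05 and, with limma-voom, 2 and 0 called with 5 and 2 at that threshold. The 2 called higher became 1 without the first control Treg library and 3 without either control Tconv library. The 3 lower at the unadjusted threshold were *Irf4*, *Cd44*, an adhesion receptor of antigen-experienced cells (-0.44, adjusted p = 0.031), and the costimulatory receptor *Icos* (-0.35, adjusted p = 0.21). In Tconvs 4 effector genes were called higher, where 4.07% of all tested genes were, namely *Klrg1*, *Itgae*, *Il10* and *Prdm1*, the gene of the factor Blimp-1 (2.04, adjusted p = 1.5e-07), and 7 were called higher without the first control library. In Tregs *Prdm1* was higher by 0.67 (adjusted p = 0.015), without reaching a 2-fold change, and the subsets differed by -1.38 (adjusted p = 0.0043).

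The genes around *Foxp3* on the X chromosome gave 0 calls under CD70 among the 3 of 4 that were tested, and 0 at an unadjusted p-value under 0.05, both by limma and by limma-voom. *Flicr*, a long non-coding RNA gene that overlaps *Foxp3* on the same strand, was at 2012 ± 10.6 in control and 2048 ± 89.1 in CD70Tg Tregs (SD, n = 2 each) and was higher in Tregs than in Tconvs by 3.80 on the log2 scale in controls. *Ccdc22* and *Ppp1r3f* were higher in Tregs by 1.61 and 1.16. Reads over shared exons could not be told apart between *Foxp3* and the genes that overlap it.

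Markers of other cell types moved with genotype in some of these libraries. Before the sort on CD3, CD4 and the reporter, the methods describe magnetic removal of cells that carry lineage markers of B, NK, dendritic, myeloid, erythroid and CD8 T cells, and the sums were measured after these steps. The sum of 2 CD8 T cell markers was between 317 and 417 in control and between 631 and 660 in CD70Tg Tregs, and between 681 and 720 in control and 1563 and 1590 in CD70Tg Tconvs. In Tregs, 4 neutrophil markers summed to 5 in each control library and to between 165 and 180 under CD70, 5 erythroid markers to between 546 and 1495 and between 2373 and 3951, and 5 dendritic cell markers to between 94 and 156 and between 356 and 389. In Tconvs the dendritic cell markers summed to between 66 and 133 in control and between 177 and 340 in CD70Tg mice, 3 plasma cell markers to between 56 and 63 and between 24 and 35, and 5 markers of macrophages and monocytes to between 1509 and 1535 and between 1132 and 1450. The 2 NK cell markers summed to between 403 and 423 in control and between 70 and 75 in CD70Tg Tconvs, and to between 36 and 64 in control and between 0 and 11 in CD70Tg Tregs. The 5 B cell markers summed to between 254 and 379 in control and between 426 and 473 in CD70Tg Tregs, and to between 151 and 176 and between 61 and 89 in the Tconv groups. The 6 markers of CD4 T cells summed to between 65832 and 68532 in control and between 68115 and 69151 in CD70Tg Tregs, and 0 of the marker genes were at 0 in all libraries. The part of these cell types in the changes of *Gpr83*, *Izumo1r* and the core genes was not tested.

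By their pattern over the 8 libraries, the 7 genes fell close to each other, since most of the variation is the difference between the subsets. The Pearson correlation of log2(value + 5), given as a description, was between 0.991 and 0.995 for *Foxp3* with *Ikzf2*, *Ikzf4* and *Lrrc32*, and 0.972 for *Foxp3* with *Nrp1*. It was lower for *Foxp3* with *Izumo1r* (0.897) and *Gpr83* (0.85), while *Gpr83* and *Izumo1r* correlated with each other at 0.961. Among the 12797 other tested genes, those most like *Foxp3* were *Flicr* (0.999), *Plxnd1* (0.998), *Ccdc22* (0.997), *Wwp1* (0.997) and *Hepacam2* (0.997). Those most like *Lrrc32* were *Il2ra* (0.997), *Fgd6* (0.996) and *Npas4* (0.996), and those most like *Izumo1r* were *Cd83* (0.995), *Ntn1* (0.993) and *Ube4b* (0.991). *Gpr83* had *She* (0.993), *2610204G07Rik* (0.991) and *Gsta4* (0.990) nearest to it, *Ikzf2* had *Lclat1* (0.999), *Ighj1* (0.998) and *Rin2* (0.998), *Ikzf4* had *Ppm1l* (0.998), *Zfp862-ps* (0.998) and *Gm3739* (0.997), and *Nrp1* had *Asxl1*, *Swap70* and *Itih5* (0.997 each).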

How the data were processed

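RNA-seq libraries were made from 8 samples, 2 in each of 4 groups. The authors trimmed reads with Trimmomatic 0.36, mapped them to mm10 with STAR 2.5.3 and counted them per gene with HTSeq 0.9.1, and the deposited table holds score values, which are counts scaled to a library total of 20 M and then rounded up to integers (library totals 19963628 to 20164600). How reads over more than 1 gene and strand were counted is not given in the sources used here. As such values are not raw counts, no count model was used in the main fit, and limma-voom on reads recovered from the steps of the values was an alternative. The table's columns of control groups are named KO, and were taken as the CD27+/- controls, which the labels call WT. The 7 genes and the gene lists were chosen with earlier results of these data known.

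Rows with clone-derived names (4131 of 52636) were left out, because their low values follow the step of the next library in the table, and of the 97 names on more than 1 row the row with the largest total was kept, both chosen after values were seen. A gene was tested if 2 or more libraries reached a value of 60 (12798 genes) with limma 3.58.1 in R 4.3.3, with a prior variance trend, on log2(value + 5), in a model of 4 group means. Contrasts were CD70Tg against control in each subset, their difference, and Tregs against Tconvs in each genotype, each with Benjamini-Hochberg adjustment over all tested genes. The comparisons share control libraries. Calls needed an adjusted p under 0.05 and a log2 change beyond 1 in either direction. Positions and exon lengths came from GENCODE M21, which holds 99.7% of the gene identifiers. The reads behind a library are less certain for the first control and second CD70Tg Tconv libraries, whose steps are 1.038 and 0.603. On simulated data with 200 genes changed 4-fold, the test recovered 99.5% in Tregs (20 false of 219 calls, 12387 genes) and 99.5% in Tconvs (0 false of 199 calls, 12398 genes). The simulation gave all genes the same dispersion, set below the median spread of the libraries, and changed only genes with a mean of at least 60. It does not tell how well changes near 2-fold or smaller are recovered.

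Named were the 7 genes, the called genes of each list with up to 4 others, and the 5 genes most correlated with *Foxp3* and 3 with each other member. The alternatives were other pseudocounts, filters, scalings, thresholds and samples in the fit, limma-voom on recovered reads, keeping the clone-named rows, and leaving out each library. The lists were also recomputed without each library, a step chosen after seeing the data.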

Additional observations from a re-analysis of the deposited data

How the results depend on the processing

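The 7 genes stayed higher in Tregs in both genotypes under each of the 20 alternatives, and *Gpr83* stayed called lower in Tregs under each of them (log2 change -2.04 to -1.64, adjusted p 5.1e-09 to 0.023). Of 693 values of the members under alternatives, 667 kept their direction and side of the threshold. The number of members called in Tconvs was 0 with a pseudocount of 20 (*Gpr83* -0.99) and 0 with no minimum value (-1.02, adjusted p = 0.088), and 2 with no threshold on the fold, which gave 2 in Tregs too. Leaving out each library in turn, it was 0 to 1 in Tconvs, 0 to 1 for the difference between the subsets and 1 in Tregs. The direction turned for values near 0. For the difference between the subsets, *Lrrc32* came to 0.01 with median-of-ratios factors, 0.04 with trimmed mean of M values factors and 0.06 with limma-voom. In Tregs, *Ikzf2* came to 0 with trimmed mean of M values factors, and in Tconvs *Foxp3* to 0.03 with limma-voom. Without single libraries, the difference ranged from -0.41 to 0.28 for *Lrrc32*, -0.16 to 0.27 for *Izumo1r*, -0.27 to 0.03 for *Ikzf4*, -0.15 to 0.38 for *Foxp3* and -0.51 to 0.02 for *Ikzf2*. The log2 change in Tregs then ranged from -0.19 to 0.09 for *Ikzf2* and from -0.16 to 0.02 for *Nrp1*, and that in Tconvs from -0.29 to 0.24 for *Foxp3*, -0.08 to 0.46 for *Ikzf2* and -0.62 to 0.07 for *Lrrc32*. The cause was not tested.

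Over all genes, 461 were called in Tregs, 594 in Tconvs and 112 in the difference. These were 235, 318 and 0 with no minimum value, where 23111 genes were tested, and 947 and 1126 in the subsets with no threshold on the fold. At an adjusted p under 0.01 they were 250 in Tregs, 465 in Tconvs and 48 in the difference. With limma-voom they fell to 172 in Tregs and 52 in the difference and rose to 846 in Tconvs. Without single libraries the lowest were 219 in Tregs, 303 in Tconvs and 58 in the difference, and the highest for the difference was 207. Tregs against Tconvs gave 2451 genes in controls and 2205 in CD70Tg mice, and 5868 and 5459 with no threshold on the fold. A fit of only the libraries compared was not run for the difference. No paired analysis was possible because the table's columns do not carry the replicate numbers of the labels. The Treg libraries, with 1.9 to 4.52 M reads on genes, limit what could be seen of genes near the floor, and the members lay far above it.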
